A study of Capra hircus with 3 samples.

Results

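miR-122 is a microRNA (miRNA) best known from liver, and its reads were followed here in small RNA libraries of goat skin. Its members were all tags (distinct read sequences) whose first 18 nt equal those of the mature miR-122 in the primer list of the study. The list of annotated tags used here held no tag of miR-122, so this sequence alone defined it. By this rule, 17 distinct tags holding 396 anagen reads, 36 catagen reads and 33 telogen reads belonged to miR-122, which is 1 of the 325 miRNA starts that could be counted (a start is the first 18 nt of a miRNA). The miRNA was chosen by its level, because it was highest in anagen, so its anagen level against the other stages is described without a test.

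The libraries came from skin of adult Shanbei White cashmere goats at the growth (anagen), regression (catagen) and resting (telogen) stages of the hair follicle cycle. For 1 library per stage, flank skin of 10 goats of both sexes, in pieces of about 1 cm2, was pooled before extraction. No group was treated or genetically altered. Each stage has a single library and hence no replicate, a difference between stages cannot be told apart from one between pools, and any test on reads compares libraries and not stages. The anagen library held 15997828 clean reads, the catagen library 18111912 and the telogen library 27016012. All intervals are 95% intervals that cover the counting error of reads only, and not differences between pools. PCR copies of a molecule are counted as separate reads, so the intervals may be too narrow and the p-values too small.

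A miRNA is cut from a hairpin precursor and guides silencing of mRNAs that pair with its seed, bases 2 to 8. miR-122 is the dominant miRNA of hepatocytes, where it is known to act on genes of cholesterol and fatty acid metabolism, and it is released into blood when hepatocytes are injured. It is not a known marker of a skin cell type. Its gene, MIR122, is 95 bases long in RefSeq's table for goat assembly ARS1.2. No annotated gene spans it, its nearest protein-coding neighbours are NEDD4L and ALPK2, and no other miRNA gene lies within 10000 bases. Fewer cells that hold the miRNA and less of it per cell cannot be told apart in these bulk samples.

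The mature sequence is shown with those of miR-1 and miR-206, the muscle miRNAs, because these were among the nearest sequences of the series and were read far more often. Capitals mark the seed, and T stands for U as in the deposited tags.
miR-122: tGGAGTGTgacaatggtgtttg
miR-1: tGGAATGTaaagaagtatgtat
miR-206: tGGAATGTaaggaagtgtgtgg
Within the first 8 bases, both differ from miR-122 by G5A (the base of miR-122, its position from the 5′ end, then the base of the other). Over the first 18 nt, each differs from it at 8 positions, as does miR-101-1, and no start was nearer. None of the other 324 starts shared the seed of miR-122. Reads of miR-1, with 62290 in anagen against 1336897 in catagen and 540218 in telogen, were therefore not counted for miR-122.

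miR-122 was read at 24.8 TPM, which here means reads scaled to 1000000 clean reads, in the anagen library (396 reads, exact Poisson interval 22.4 to 27.3). In catagen the level was 1.99 TPM (36 reads, 1.39 to 2.75). In telogen it was 1.22 TPM (33 reads, 0.841 to 1.72). The order was anagen, catagen, telogen. The intervals of catagen and telogen overlapped. Of all miR-122 reads, 85.2% were in the anagen library, although it was the least deeply sequenced.

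**Figure D1:**
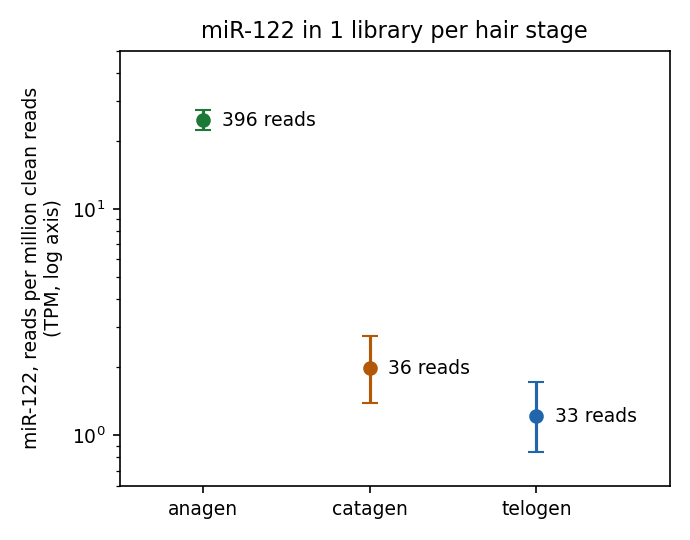
Level of miR-122 in the 3 libraries, in TPM on a log axis, with exact 95% Poisson intervals for counting error. The anagen point stands at 24.8 TPM, above 1.99 TPM in catagen and 1.22 TPM in telogen.

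Among the miRNA starts with reads in a library, miR-122 ranked 81 of 311 in anagen, 177 of 312 in catagen and 194 of 314 in telogen. This order is of the sequences held, and for some miRNAs the main arm was not among them. The start held for let-7g had 2 reads in anagen, although the paper lists let-7g among its most read miRNAs of that stage. Among all miRNAs, miR-122 may therefore stand lower. Within the starts held, miR-122 stood in the upper part of the order in anagen and below its middle in both other libraries.

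The anagen level was 12.5-fold that of catagen (log2 ratio 3.64, exact interval 3.14 to 4.17) and 20.3-fold that of telogen (log2 ratio 4.34, 3.83 to 4.90). The log2 ratio over catagen was 4.88 with the most abundant tag alone, 4.44 with exact parts of the mature sequence and 1.02 with distinct tags in place of reads, and the ratio over telogen was 2.16 with distinct tags. These ratios are those by which the miRNA was picked, and nothing was read from them beyond their size. Over starts with at least 1 TPM in either library, a log2 ratio above 1 towards anagen was found for 13 of 219 (5.94%) against catagen and for 13 of 217 (5.99%) against telogen. The median log2 ratio of these starts was -0.43 over catagen and -0.34 over telogen, and miR-122 had the highest value in both.

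The comparison of catagen with telogen was not used in the choice. The catagen level was higher by a log2 ratio of 0.70 (exact interval -0.02 to 1.43, 36 against 33 reads, exact Audic-Claverie test, two-sided, p = 0.0421). This did not reach the limits set here for a call, p under 0.01 together with a log2 ratio beyond 1 in either direction, which 31 of 219 starts (14.2%) passed in this pair. The ratio turned to -0.42 when the most abundant tag alone was counted (p = 0.74 in the exact test) and to -0.067 with tags that are an exact part of the mature sequence (exact p = 1), so that no order of catagen and telogen was distinguishable at this depth.

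The pair of stage ratios was set beside those of the other miRNAs. Of 184 starts with at least 100 reads over the 3 libraries, 40 (21.7%) were highest in anagen, and only 3 were above a log2 ratio of 1 over both other stages, namely miR-122, miR-143 and miR-1271. The 5 starts nearest to miR-122 were found by the Euclidean distance between pairs of log2 ratios (anagen over catagen and anagen over telogen), over 183 candidates and 3 libraries. A start stands for the most read sequence listed for a name, which for miR-143 and let-7a-3 is usually the minor arm, so that their patterns are not those of the whole miRNA.

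The nearest was the minor arm of miR-143, a miRNA of smooth muscle and other mesenchymal cells, with 282 TPM in the anagen library, 55.3 in catagen and 66.0 in telogen (distance 2.59). The next was miR-144, which red blood cell precursors make, with 104 TPM in the anagen library, 76.4 in catagen and 7.18 in telogen (distance 3.23). Its pattern resembled that of miR-122 against telogen, but its log2 ratio over catagen was 0.44. miR-1271 had 8.31, 1.99 and 3.18 TPM in the same order (distance 3.35). miR-1298 had 31.0 TPM in the anagen library, 27.9 in catagen and 8.33 in telogen (distance 4.26). The start held for let-7a-3 was the last of the 5, with 2.56, 0.883 and 1.78 TPM (distance 4.35). All 5 had their highest TPM in anagen, which follows largely from choosing them by nearness to miR-122. Even so, the interval of the log2 ratio included 0 for miR-1298 against catagen and for let-7a-3 against telogen.

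**Figure D2:**
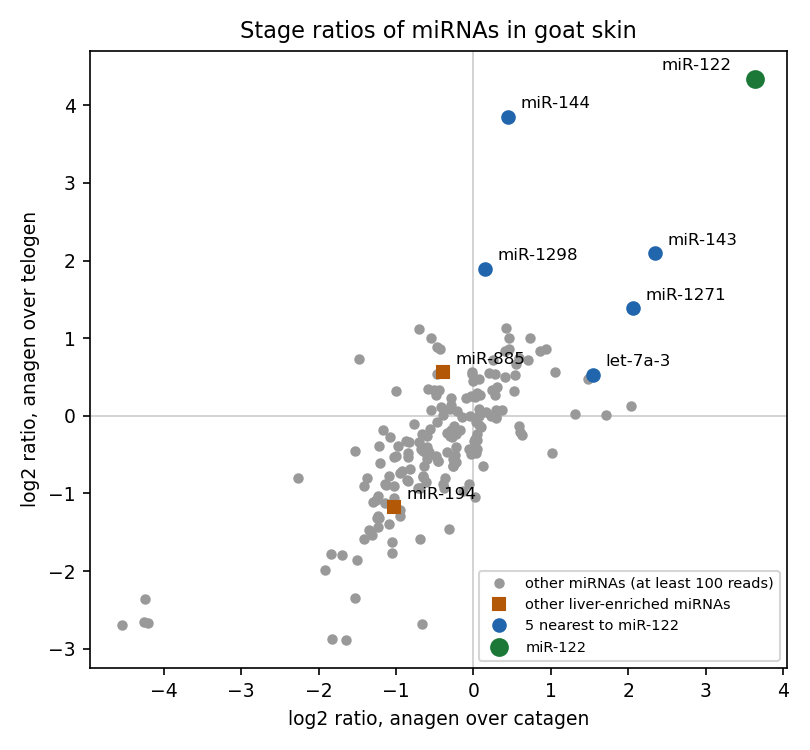
Log2 ratios of anagen over catagen (x axis) and of anagen over telogen (y axis) for the 184 miRNA starts with at least 100 reads, with miR-122 in green, the 5 nearest starts in blue and 2 other liver-enriched miRNAs as orange squares. miR-122 lies at the upper right end at 3.64 and 4.34, miR-194 lies below 0 on both axes at -1.02 and -1.18, and miR-885 lies at -0.39 and 0.57.

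The liver-enriched list named miR-122, miR-192, miR-194, miR-885, miR-802, miR-483 and miR-148a, of which 4 besides miR-122 had a sequence in the sources used. None of the 4 was highest in anagen and 2 were lowest there, beside 40 (21.7%) highest and 102 (55.4%) lowest there among the 184 starts with at least 100 reads, so nothing particular to the list was read from these counts. miR-194, which is known from liver and gut, had 56 reads in anagen (3.50 TPM) against 129 in catagen (7.12 TPM) and 214 in telogen (7.92 TPM), so its anagen level was the lowest (log2 ratio -1.02 over catagen and -1.18 over telogen). The sequence held for miR-885 is the 3′ arm, not the 5′ arm known from liver and serum, and had 163, 242 and 186 reads in the same order (10.2, 13.4 and 6.88 TPM), with log2 ratios of -0.39 over catagen and 0.57 over telogen. The sequences held for miR-148a (its minor arm, with 6, 10 and 2 reads, log2 ratio -0.56 over catagen and 2.34 over telogen) and miR-483 (0, 2 and 3 reads) were close to the limit of detection, where 0 reads allow up to 3 reads, or 0.188 TPM, in anagen. Without miR-122, the summed level of the list was 14.1 TPM in the anagen library, 21.1 in catagen and 14.99 in telogen. Most of it in anagen and catagen was the 3′ arm of miR-885, so this order is not one of the liver arms.

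Lists for other cell types that a skin sample can hold were summed in the same way. The red blood cell list (miR-451, miR-144 and miR-486, all with reads) summed to 1298 TPM in the anagen library, 2118 in catagen and 875 in telogen. miR-451 had 861 TPM in anagen, below 1265 in catagen and above 431 in telogen, and miR-486 was lowest in anagen with 333 TPM against 777 in catagen and 437 in telogen. Only miR-144 of these 3 was highest in anagen.

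The 4 muscle starts (miR-1, miR-206, miR-133a and that shared with miR-133b) were all lowest in anagen, with a sum of 4110 TPM against 78728 in catagen and 21392 in telogen. The start held for miR-133a is the shared start without its first base, so they are not separate markers. The 3 white blood cell starts (miR-223, miR-142 and miR-155) summed to 112 TPM in the anagen library, 150 in catagen and 181 in telogen. Their orders differed. miR-223 had 7.69, 12.1 and 49.4 TPM in anagen, catagen and telogen, miR-142 had 61.0, 60.5 and 76.4, and miR-155 had 43.6, 77.5 and 55.2.

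For the tissue itself, the 4 epithelial starts (miR-205, miR-200a, miR-200b and miR-141, common in keratinocytes) were read in all libraries and summed to 58.3 TPM in the anagen library, 54.4 in catagen and 62.6 in telogen. Most of this sum was miR-200b. The other 3 were highest in anagen, among them miR-205 with 14.5 TPM against 3.53 in catagen and 13.3 in telogen. However, the interval of the log2 ratio included 0 for miR-205 against telogen (-0.12 to 0.36) and for miR-200a against catagen (-0.64 to 1.30). For miR-141, with 9.88, 9.44 and 9.77 TPM in the same order, the interval included 0 against both other stages. The 4 starts of dermal fibroblasts and smooth muscle (miR-199a, miR-214, miR-143 and miR-145) summed to 2683, 4604 and 3976 TPM in the same order. Nearly all of it was miR-199a, which was lowest in anagen like miR-214 and miR-145, whereas miR-143 was highest there. These sums hold what is usually the minor arm of miR-205, miR-200a, miR-200b, miR-214, miR-143 and miR-145, and miR-199a reads that start 1 base later count under miR-199c, so the order of the sums is that of these sequences and may not hold for the main arms, which were not analysed here. No marker of these 5 lists with a sequence was at 0 in a library, while miR-150 of white blood cells and miR-203 of keratinocytes had no sequence in the sources used. The part of these differences in the level of miR-122 was not tested.

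**Figure D3:**
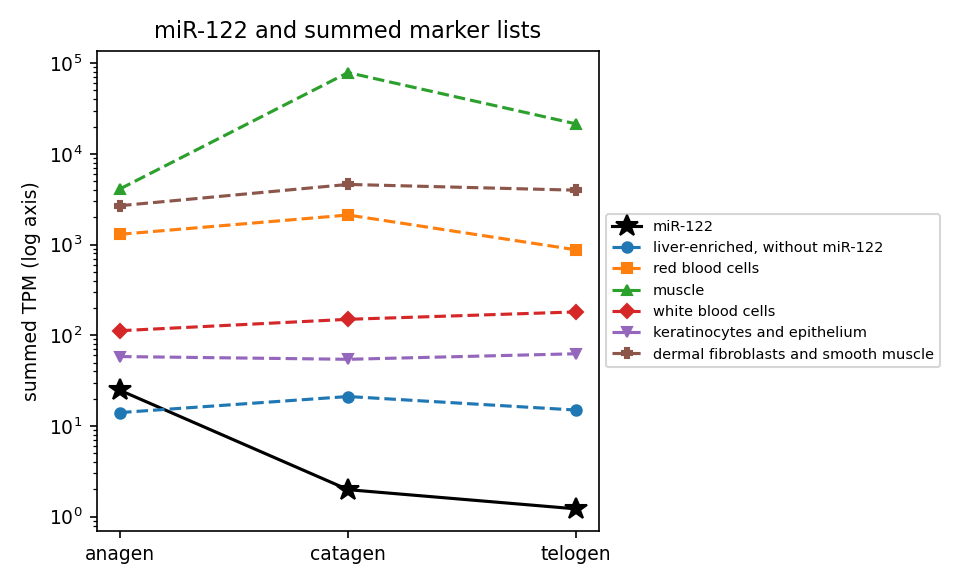
Summed TPM (log axis) of each marker list in the 3 libraries, with miR-122 alone as black stars, the liver-enriched list drawn without it and several other markers counted by their minor arm. miR-122 falls from 24.8 TPM in anagen to 1.22 in telogen, while the sum of the other liver-enriched list, partly minor arms, stays between 14.1 and 21.1 TPM.

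Most reads were of 4 forms with different 3′ ends, which are shown because the most read form was not the same in each library. Capitals mark bases past the end of the mature sequence.
miR-122 of 21 nt: tggagtgtgacaatggtgttt
miR-122 of 22 nt: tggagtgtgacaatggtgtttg
miR-122 of 23 nt with A: tggagtgtgacaatggtgtttgA
miR-122 of 23 nt with T: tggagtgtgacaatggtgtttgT
Together these 4 tags held 363 reads in anagen (91.7%) against 33 in catagen (91.7%) and 32 in telogen (97.0%). Whether the added A or T is encoded by the goat precursor was not analysed here. The other 13 tags had 33 reads in the anagen library, 3 in catagen and 1 in telogen. Among them were a form of 20 nt with 18 reads and one of 19 nt with 2 reads, both in anagen only. No tag of 18 nt, the shortest length deposited, was found.

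The mature form of 22 nt had 156 reads in anagen (39.4%) against 6 in catagen (16.7%) and 12 in telogen (36.4%). The form of 21 nt, which lacks the last G, had 130 reads in anagen (32.8%) against 10 in catagen (27.8%) and 13 in telogen (39.4%). It was the leading form in telogen, and the mature form led in anagen. The form with A had 44, 5 and 3 reads in anagen, catagen and telogen. The form with T had 33 reads in anagen (8.33%) against 12 in catagen (33.3%) and 4 in telogen (12.1%), and it was the leading form in catagen.

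Each of the 4 forms was more frequent in anagen than in either other library, but to an unequal extent. The log2 ratio of anagen over catagen was 4.88 for the mature form (exact interval 3.72 to 6.35), 3.88 for the form of 21 nt (2.95 to 4.97), 3.32 for that with A (1.99 to 5.01) and 1.64 for that with T (0.65 to 2.73). Over telogen the log2 ratios were 4.46 (3.61 to 5.44), 4.08 (3.25 to 5.03), 4.63 (2.99 to 6.96) and 3.80 (2.31 to 5.76), respectively, with overlapping intervals. In the ratio over catagen, the interval of the form with T overlapped that of the form with A, but neither that of the mature form nor that of 21 nt. These ratios were set side by side after the tags were seen, and their difference was not tested.

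**Figure D4:**
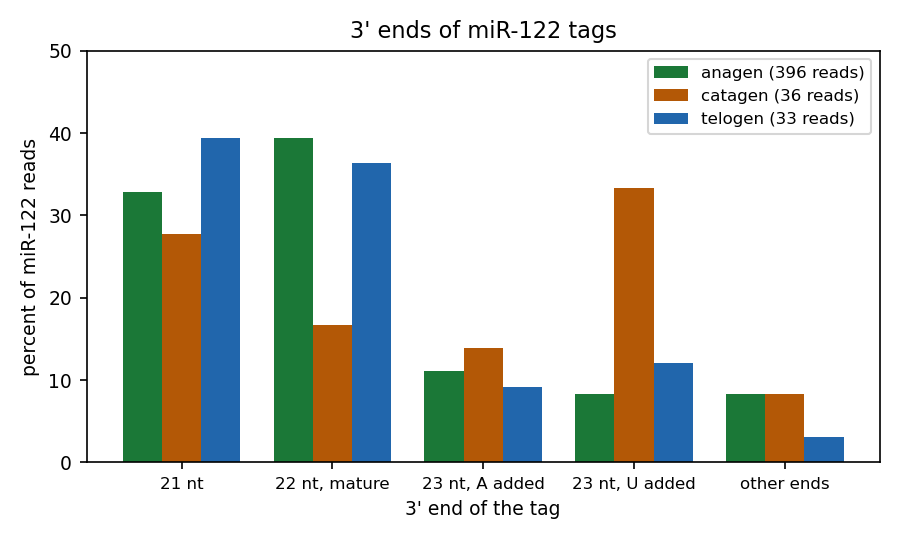
Share of miR-122 reads by 3′ end in each library, in percent of 396 reads in the anagen library, 36 in catagen and 33 in telogen (U is written T in the tags). The form of 23 nt with U stands at 33.3% in catagen against 8.33% in anagen and 12.1% in telogen.

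The length of the reads within miR-122 was not used in the choice and was compared by Fisher's exact test (two-sided), with Benjamini-Hochberg adjustment over 9 comparisons of length and ends. Reads of 22 nt or longer made up 61.9% in anagen (245 of 396, Wilson interval 57.0 to 66.5), 72.2% in catagen (26 of 36, 56.0 to 84.2) and 60.6% in telogen (20 of 33, 43.7 to 75.3). Anagen minus catagen was -10.4 percentage points (interval -23.2 to 6.51), and the exact test did not separate them (adjusted p = 0.579). Anagen and telogen differed by 1.26 points (-14.2 to 18.8, exact adjusted p = 1). Between catagen and telogen the difference was 11.6 points (-10.3 to 32.3, exact adjusted p = 0.579).

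A limit of 23 nt in place of 22 nt gave another result for anagen and catagen. Reads of 23 nt or longer were 82 of 396 in anagen (20.7%, Wilson interval 17.0 to 24.97), 19 of 36 in catagen (52.8%) and 8 of 33 in telogen (24.2%). Anagen minus catagen was then -32.1 points (-47.7 to -15.7, Fisher's exact test, adjusted p = 0.000909). Anagen and telogen differed by -3.54 points (-20.7 to 8.65, exact adjusted p = 0.783). Catagen was above telogen by 28.5 points (5.51 to 47.6), which did not pass after adjustment (exact adjusted p = 0.0575). The adjustment did not count the limits of 21, 22 and 23 nt that were tried. Other miRNAs were not compared at 23 nt, so whether the difference is particular to miR-122 was not tested.

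The lengths of other miRNAs were set beside those of miR-122. The median share of reads of 22 nt or longer was 75.1% over 122 other starts with at least 100 reads in anagen, 85.6% over 137 in catagen and 83.5% over 155 in telogen. In each library the share of miR-122 lay below the median of the others, with 78 of 122, 93 of 137 and 117 of 155 above it. The part of this difference between libraries in the lengths of miR-122 was not tested.

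The added base at position 23 was compared next, an analysis chosen after the tags were seen. Among reads that hold the whole mature sequence and then A or T, A followed in 45 of 80 in anagen (56.2%, Wilson interval 45.3 to 66.6), 5 of 18 in catagen (27.8%, 12.5 to 50.9) and 3 of 7 in telogen (42.9%, 15.8 to 74.95). The anagen share was 28.5 points above that of catagen (2.93 to 46.9), which did not pass after adjustment (Fisher's exact test, p = 0.0375, adjusted p = 0.113). For the other pairs the adjusted p was 0.894.

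The stem-loop primer that the study used for miR-122 is shown because its 3′ end matches a single form of the miRNA. Capitals mark the 6 bases that pair with the end of the mature form.
miR-122 primer: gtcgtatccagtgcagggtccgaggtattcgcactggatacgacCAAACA
Reads that end on the 6 bases it pairs with were those of the exact mature form alone, 39.4% of miR-122 reads in anagen against 16.7% in catagen (Wilson interval 7.87 to 31.9) and 36.4% in telogen (22.2 to 53.4). The anagen interval was 34.7 to 44.3. Whether the primer also copies the other ends was not tested. By quantitative PCR, the paper reports a trend of miR-122 over the stages similar to that of its sequencing.

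A further set of reads at the 5′ end was seen after the tags had been examined, in tags just outside the rule. Tags identical to miR-122 from position 2 to 18 but with another first base had 64 reads in anagen and 0 in both other libraries. The most read of them are shown, with the first base in capitals.
miR-122 with A: Aggagtgtgacaatggtgtttg
miR-122 with G: Gggagtgtgacaatggtgtttg
miR-122 with C: Cggagtgtgacaatggtgtttg
The first of these tags had 14 reads, the next 11 and the last 9, all in anagen. Over all lengths, A stood first in 30 reads, G in 22 and C in 12. They kept the 3′ ends seen in miR-122, including 18 reads of the form of 21 nt and 6 of that of 23 nt with A.

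With these reads added, another first base made up 64 of 460 reads in anagen (13.9%, Wilson interval 11.05 to 17.4), 0 of 36 in catagen (0 to 9.64) and 0 of 33 in telogen (0 to 10.4). The difference of anagen was 13.9 points from catagen (3.85 to 17.4) and from telogen (3.10 to 17.4). In the exact test of Fisher p was 0.00876 and 0.0141, and neither passed after adjustment over the 9 comparisons (adjusted p = 0.0633 for both). The comparison was chosen after the same reads had been seen, so these p-values are descriptive and cannot test the pattern. With so few reads, shares of up to 9.64% in catagen and 10.4% in telogen lay within the intervals.

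Within the anagen library, no other start with at least 100 reads had as high a share. Over these 122 other starts, the median share with another first base was 0.0584%, the upper quartile 0.202% and the highest 3.99% (miR-2285e-2). For the muscle miRNAs it was 0.167% in miR-1 and 0.617% in miR-206. The minor arm of miR-143 and miR-144, which were also highest in anagen, had 0.244% and 0.0601%. The medians of catagen and telogen were 0, and the highest shares were 5.54% in catagen (miR-2285e-2) and 4.01% in telogen (miR-100).

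**Figure D5:**
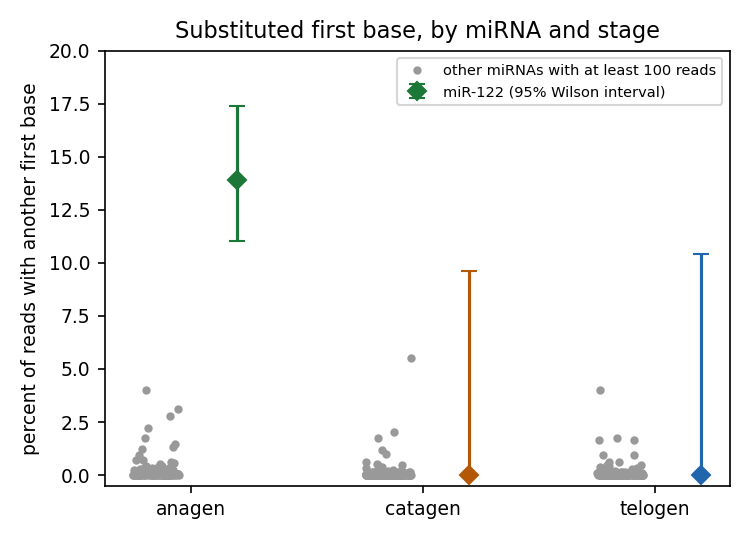
Share of reads, in percent, whose first base differs while positions 2 to 18 match, for other miRNA starts with at least 100 reads (grey points) and for miR-122 (diamonds with 95% Wilson intervals) in each library. miR-122 stands at 13.9% in anagen, above all 122 other starts, and at 0 in catagen and telogen.

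Mismatches were concentrated at the first position. A single mismatch at any of the positions 2 to 18 was found in 11 anagen reads in all, with at most 2 reads at a position, and in no read of catagen or telogen. When tags within 1 mismatch of the first 18 nt were added to miR-122, anagen rose to 471 reads and the log2 ratios to 3.89 over catagen and 4.59 over telogen. Tags with a shifted start were rare, with 1 read in anagen that starts 1 base later and 2 telogen reads of 26 nt that start 7 bases earlier.

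All reads counted were of the arm in the primer list. The sequence of the opposite arm was in none of the sources used, and its reads were not analysed here. A search for tags that hold the reverse complement of positions 4 to 18 with at most 2 mismatches found 6 reads in 6 tags in anagen, 7 in 7 tags in catagen and 13 in 12 tags in telogen. No such tag had more than 2 reads, and none can be assigned to the miR-122 hairpin without its sequence.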

How the data were processed

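Small RNA of skin was sequenced on an Illumina/Solexa Genome Analyzer in 1 library per stage. The authors filtered out reads of low quality, of adapter alone, of poly(A) or below 18 nt, and deposited each distinct tag with its raw read count, together with a record of the counts removed. No alignment enters these counts. The deposited counts sum to the clean reads of that record, and reads under 18 nt were 3.38%, 2.66% and 0.566% of high-quality reads in anagen, catagen and telogen, respectively.

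From the counts, the first 18 nt of each tag were matched to miR-122 and to the most read sequence of each of 336 names in the authors' tag list, of which the copy used is shortened. Starts shared by several names were joined, which gave 325. TPM is reads scaled to 1000000 clean reads. A value of 0 was set to 0.01 TPM in log2 ratios, whose intervals are exact (Clopper-Pearson). Levels have exact Poisson intervals, shares have Wilson intervals and differences of shares have Newcombe intervals. The Audic-Claverie test follows the formula of the study. No quasi-likelihood model could be fitted with 1 library per stage. The planned comparison of untemplated 3′ ends could not be made without a precursor sequence and was replaced by the base at position 23.

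Named were miR-122, its opposite arm, the members of the marker lists and the 5 miRNAs of nearest pattern with at least 100 reads. The miRNA, the lists and the tests were chosen with earlier results of these data known. The alternatives were other scalings, tag definitions, length limits, a minimum of 2 reads and a binomial test. The counting and the tests were tested on simulated data. Python 3.11.15, pandas 2.3.3, NumPy 2.4.6, SciPy 1.17.1 and matplotlib 3.10.9 were used.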

Additional observations from a re-analysis of the deposited data

How the results depend on the processing

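The log2 ratio of anagen over catagen kept its sign in 10 of 10 alternatives and lay within the counting interval in 7 of them. It moved to 4.88 with the most abundant tag alone, to 4.44 with tags that are an exact part of the mature sequence and to 1.02 with distinct tags in place of reads. Over telogen the ratio kept its sign in all 10 and moved in 1, to 2.16 with distinct tags. The miRNA was picked as highest in anagen, and the alternatives recount largely the same reads. The kept signs therefore follow largely from the choice and lend no support to either contrast. For catagen over telogen, no alternative passed the limits for a call, p ranged from 0.0421 to 1 and the value ranged from -0.42 (most abundant tag alone) to 1.14 (distinct tags). It was also below 0 with exact parts of the mature sequence (-0.067). The share of 22 nt or longer in anagen minus catagen was -32.1 points with a limit of 23 nt. It passed there, without a correction for the number of limits tried. In anagen minus telogen the difference turned to -3.54 points with that limit and to -5.05 points with a limit of 21 nt. The cause of these moves was not tested. The added comparisons of the base at position 23 and of the first base changed no call under the alternatives chosen for them after seeing the data. Scaling by the reads of all miRNA starts gave 3.62 over catagen and 3.996 over telogen, and size factors 4.01 and 4.64. Few reads limit catagen (36) and telogen (33). No replicate could be left out, and no paired analysis was possible because each stage has 1 library.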
